A study of Mus musculus with 13 samples.

Results

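The fibril-forming collagen genes described here were Col1a1 and Col1a2 (collagen I), Col3a1 (collagen III), Col5a1, Col5a2 and Col5a3 (collagen V) and Col11a1 (collagen XI). They were taken by gene name and make up 7 of the 43346 entries of the deposited gene table. RNA was sequenced from mouse lung fibroblasts in 13 libraries of 4 groups: sham (n = 2), 14 days after bleomycin (n = 3), 30 days after bleomycin (n = 5) and 14 days after pneumonectomy (n = 3). Bleomycin is a drug that injures the lung and leaves scar tissue, and pneumonectomy takes out a lung and is followed by growth of the lung that stays. The comparison thus sets a scarring lung beside a regrowing one. The sham and bleomycin mice were Col1a1-GFP animals of 8 weeks, in which a Col1a1 promoter drives a green fluorescent protein, so the gene behind the reporter is itself among the 7. The labels of the pneumonectomy libraries call the cells sorted primary fibroblasts and give neither strain nor age in weeks, though their column headers call them young. The design text of the series counts them among the reporter fibroblasts, with the reporter written Co11a1-GFP. For the sorting gate, the sex of the mice, the dose of bleomycin and the content of the sham procedure, nothing is stated in the labels. Nor do the labels say that libraries of a group came from separate animals, so p-values measure the spread between these libraries, which may be technical. Columns of the pneumonectomy libraries are not numbered, and those libraries are called A, B and C.

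Fibrillar collagens are made as procollagen chains that fold into triple helices, are secreted, lose their end propeptides and then assemble side by side into fibrils. Collagens I and III form the bulk of lung interstitial fibrils. Collagens V and XI are minor partners that sit inside these fibrils, start their assembly and limit their width, and collagen XI is best known from cartilage, where it joins collagen II. Collagen I is mostly a mixed trimer of α1(I) and α2(I) chains, collagen III a trimer of 1 kind of chain, and collagen V occurs as trimers of α1(V) with α2(V) and, in some tissues, α3(V).

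Values are RPKM, reads per kilobase of gene and per M (mega) reads of the library, which take gene length and depth into account. The depth read from the steps of low values was 67.59 to 71.97 M reads in sham, 79.86 to 99.85 at day 14 and 132.6 to 200.3 at day 30 after bleomycin, and 68.94 to 75.44 after pneumonectomy. Of low values, 84.3% to 90.3% per library came out as whole reads within 0.05. At this depth Col11a1 in sham rested on about 42.3 and 35.7 reads and Col3a1 on 376300 to 1930000 reads per library. Changes are log2 differences of scaled values after adding 0.1 RPKM, from limma over 12938 genes with Benjamini-Hochberg adjustment, called at 0.05. The scaling brings the median change of all genes close to 0, whereas on the deposited scale that median lay between -0.21 and 0.47 in the 6 comparisons.

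The libraries did not hold the same mix of transcripts. For comparison with the marker counts, 33.4% of all genes tested were called higher and 29.9% lower than sham at day 14 after bleomycin. These shares were 22.6% and 19.3% after pneumonectomy, and 14.8% and 14.1% at day 30. The marker counts carry no test, and those of fibroblast markers at day 30 and after pneumonectomy were not far from these shares. At day 14 after bleomycin 9 of 10 endothelial markers were called higher than in sham (summed level 314 to 615 against 35.7 to 38.1 RPKM, Cldn5 114 against 0.902, Cdh5 100.3 against 0.998), 9 of 10 macrophage markers were higher (141 to 486 against 28.1 to 36.4, led by Lyz2 and Ctss) and 7 of 10 fibroblast markers were lower (885 to 937 against 3019 to 3482, Dcn 139 against 1619, Dpt 103 against 588). All 5 proliferation markers were higher there (22.7 to 28.9 against 0.814 to 1.11, Ccna2 and Mki67 the most abundant). At day 30, 9 of 10 macrophage markers were again higher than in sham (215 to 775 RPKM), as were all 5 proliferation markers (1.84 to 3.20 RPKM) and 4 of 6 mesothelial markers (4.35 to 21.0), of which 1 each was still called without sham replicate 1. The fibroblast sum was below sham at day 30 (2214 to 2948 RPKM) and after pneumonectomy (2151 to 2540) as well, with Dcn called lower in both (limma adjusted p = 0.0148 and 0.00389). By count, however, 1 of 10 fibroblast markers was higher and 3 were lower at day 30. After pneumonectomy 3 were higher and 2 lower, with a median log2 change of 0.158. After pneumonectomy, 6 of 6 mesothelial markers were higher than in sham (12.5 to 43.5 against 2.02 to 3.13, led by Msln and Upk3b), as were 8 of 10 endothelial markers, though their sum was only 26.2 to 53.9, and 6 of 10 smooth muscle and pericyte markers, with Acta2 at 609 against 417. Myh11, the next most abundant of that list, was at 168 against 117 and was not called (limma adjusted p = 0.0793). The sum of that list was 825 to 1157 RPKM after pneumonectomy and 429 to 847 in sham. These ranges overlapped, as did the Acta2 values of the 2 groups. Of the granulocyte markers, led by S100a9 and S100a8, 4 of 5 tested were higher than in sham at day 14 and 5 of 5 at day 30 after bleomycin. The 3 erythroid markers tested, led by Hba-a1 and Hbb-bs, were higher at day 14, but none without sham replicate 1. Epithelial sums varied from 4.65 to 1245 RPKM between libraries (Sftpc and Scgb1a1 the most abundant), and the only lymphocyte marker tested, Cd3e, was higher after pneumonectomy. Cd3e and Mki67 were under 1 RPKM in sham and entered the tests through the groups where they were high. Xist was 19.9 to 29.2 RPKM in all day 30 libraries with Ddx3y at 0, while all day 14 libraries had at most 0.0222 RPKM of Xist with Ddx3y at 9.91 to 23.8. Of the sham libraries, replicate 1 had 15.9 RPKM of Xist together with 2.14 of Ddx3y, and replicate 2 had 0.0147 of Xist with 11.4 of Ddx3y. Sex, as read from these genes, therefore cannot be told apart from day after bleomycin. The part of any of these differences in the collagen values was not tested, and in bulk RNA fewer cells of a type and less RNA per cell cannot be told apart.

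On the mm10 assembly with GENCODE M21 annotation, Col1a1 lies at chr11:94936224-94953042, Col1a2 at chr6:4504814-4541544, Col5a1 at chr2:27886425-28039514 and Col11a1 at chr3:114030540-114220718, all on the plus strand, and Col5a3 at chr9:20770050-20815067 on the minus strand. Col3a1 (chr1:45311538-45349706, plus) and Col5a2 (chr1:45374321-45503282, minus) are neighbours that point towards each other across 24.6 kb. The sequences before the start sites of Col5a1, Col5a3 and Col11a1 are shown because these 3 genes encode minor fibril chains and moved by very different amounts. Each line gives the 150 bases that end upstream of every annotated transcript of the gene, 5′ to 3′ on the gene's strand, from RefSeq on GRCm38.p6, with capitals marking CCAAT or GGGCGG on either strand.
Col5a1, chr2:27886231-27886380, plus strand: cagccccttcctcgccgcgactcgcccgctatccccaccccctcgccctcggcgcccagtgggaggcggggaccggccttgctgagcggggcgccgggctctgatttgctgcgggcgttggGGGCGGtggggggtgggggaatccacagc
Col5a3, chr9:20815118-20815267, minus strand: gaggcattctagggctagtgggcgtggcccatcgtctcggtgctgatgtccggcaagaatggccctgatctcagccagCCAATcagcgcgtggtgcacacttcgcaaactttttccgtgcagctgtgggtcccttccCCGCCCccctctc
Col11a1, chr3:114030329-114030478, plus strand: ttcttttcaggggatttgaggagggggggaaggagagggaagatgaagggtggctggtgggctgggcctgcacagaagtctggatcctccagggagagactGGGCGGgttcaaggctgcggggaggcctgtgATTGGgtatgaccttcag
Counted back from the base after each window, the Col5a1 window held GGGCGG at -29 to -24. The Col5a3 window held CCAAT at -72 to -68 and GGGCGG, on the opposite strand, at -13 to -8. The Col11a1 window held GGGCGG at -49 to -44 and CCAAT, on the opposite strand, at -18 to -14. The same search found CCAAT in 24.5% and GGGCGG in 28.6% of 32851 promoter windows of this length. The Col3a1 window (chr1:45311388-45311537) held neither but had TATAAA at -117 to -112, a motif found in 7.57% of windows, and TGANTCA, found in 4.24%, was in none of these 4 windows. Col1a1, Col5a2 and Col1a2 are not shown. These matches describe letters only.

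The collagen I genes were among the most abundant transcripts in every library. Col1a1, which encodes the α1(I) chain, was at 437 and 670 RPKM in the sham libraries, at 1633, 1196 and 1290 at day 14 after bleomycin, at 675, 749, 811, 987 and 997 at day 30, and at 1427, 707 and 783 in pneumonectomy libraries A, B and C. All libraries of the other 3 groups lay above both sham libraries, and those of day 14 after bleomycin lay above all others except pneumonectomy library A. Among 21943 protein-coding genes Col1a1 ranked 2 to 4 at day 14 and 8 to 17 in sham. It rose by 1.09 ± 0.31 (log2, SE) at day 14 after bleomycin (limma adjusted p = 0.00899) and by 1.00 ± 0.31 after pneumonectomy (adjusted p = 0.0227). At day 30 it was 0.50 above sham (adjusted p = 0.202) and 0.58 below day 14 (adjusted p = 0.0605), neither of which passed. On the deposited scale the difference between day 30 and day 14 was -0.71 and was called (limma adjusted p = 0.0238). Without sham replicate 1 the day 14 value was 0.78 and no longer called (adjusted p = 0.1), and the pneumonectomy value lost its call without sham replicate 1 (0.69, adjusted p = 0.177) or without library A (0.68, adjusted p = 0.0638).

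Col1a2, which encodes the partner chain α2(I), moved less. It was at 295 and 447 RPKM in sham, 626, 474 and 501 at day 14 after bleomycin, 386, 423, 460, 519 and 518 at day 30, and 668, 386 and 422 after pneumonectomy. The sham range reached into the day 30 and pneumonectomy ranges. No comparison of Col1a2 passed: it was 0.30 ± 0.26 above sham at day 14 after bleomycin (limma adjusted p = 0.325) and 0.62 ± 0.26 above it after pneumonectomy (adjusted p = 0.0726). Without sham replicate 2 the latter was 0.92 and was called (adjusted p = 0.0465).

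Col3a1, the only chain of collagen III, did not rise with Col1a1 at day 14 after bleomycin. Its levels were 567 and 873 RPKM in sham, 933, 784 and 776 at day 14, 934, 926, 1146, 1189 and 1071 at day 30, and 1441, 856 and 965 after pneumonectomy. The day 14 values overlapped sham, while every day 30 library lay above both sham libraries. The log2 difference from sham at day 14 was -0.01 ± 0.25 (limma adjusted p = 0.975), and on the deposited scale 0.23. After pneumonectomy Col3a1 was 0.81 ± 0.25 higher than in sham (adjusted p = 0.0205), and at day 14 it was lower after bleomycin than after pneumonectomy by 0.82 ± 0.22 (log2 scale, adjusted p = 0.00546). Both calls were lost on the deposited scale, at 0.59 (adjusted p = 0.0554) and -0.36 (adjusted p = 0.145), and the call against sham also without library A (0.59) or sham replicate 1 (0.50).

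**Figure D1:**
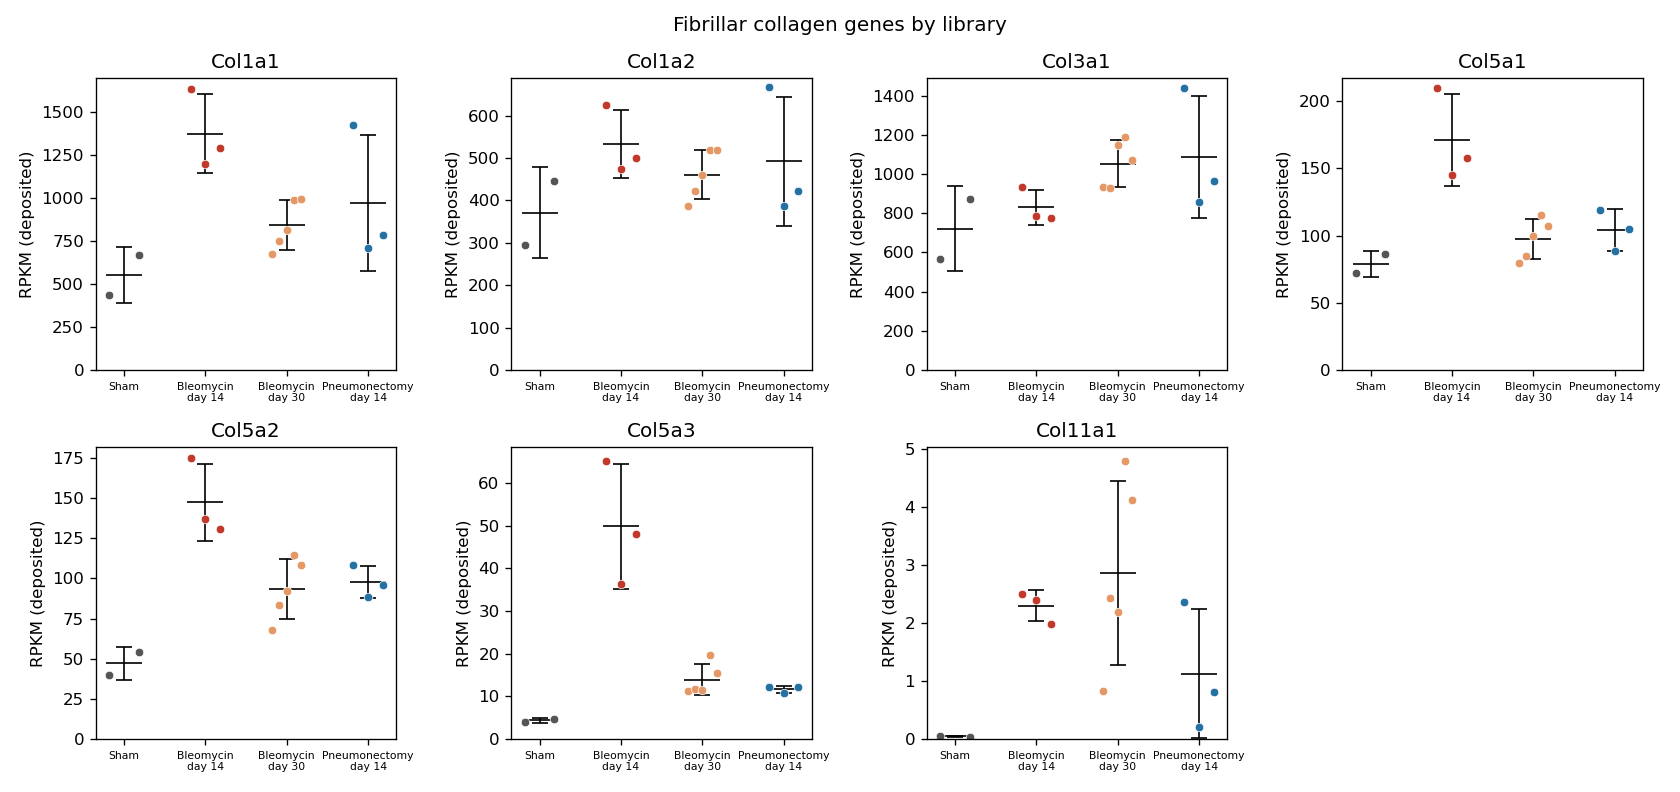
Deposited RPKM (linear axis from 0) of the 7 fibrillar collagen genes, a panel per gene, with a point per library and a bar at each group mean ± SD. Sham (n = 2) lies lowest for Col5a3 and Col11a1 with no overlap with any other group, whereas for Col3a1 the sham and day 14 bleomycin libraries overlap.

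The collagen V genes were expressed below the collagen I genes in every library and changed by different amounts. Col5a1, which encodes α1(V), the chain common to collagen V trimers, was at 72.2 and 85.9 RPKM in sham, 209.8, 145 and 158 at day 14 after bleomycin, 79.4, 84.7, 99.6, 115 and 107 at day 30, and 119, 88.4 and 105 after pneumonectomy. Day 14 after bleomycin stood above all other libraries, and day 30 overlapped sham. Col5a1 rose by 0.85 ± 0.20 at day 14 (limma adjusted p = 0.0031) and fell by 0.68 ± 0.16 from day 14 to day 30 (log2 scale, adjusted p = 0.00339). After pneumonectomy it was 0.61 ± 0.20 higher than in sham (adjusted p = 0.0301), a call that was lost on the deposited scale (0.39) and without any of sham replicate 1, sham replicate 2, library A or library C.

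Col5a2, which encodes α2(V), was at 39.8 and 54.3 RPKM in sham, 174.6, 137 and 131 at day 14 after bleomycin, 67.8, 83.5, 92.2, 115 and 108 at day 30, and 108, 88.5 and 95.8 after pneumonectomy. Both sham libraries lay below all others, and the day 14 bleomycin libraries above all others. It rose against sham in each injured group, by 1.41 ± 0.22 at day 14 (limma adjusted p = 0.00019), 0.86 ± 0.21 at day 30 (adjusted p = 0.0102) and 1.29 ± 0.22 after pneumonectomy (adjusted p = 0.000943). From day 14 to day 30 it fell by 0.55 ± 0.18 (log2 scale, adjusted p = 0.0202), but by less without day 14 replicate 1, where the call did not hold (-0.39, adjusted p = 0.107). Against sham, the day 30 value did not pass when sham replicate 1 was left out (0.64).

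Col5a3, which encodes α3(V), the rarest of the collagen V chains here, changed most of the collagen V genes. It was at 3.95 and 4.79 RPKM in sham, 65.2, 36.2 and 48.0 at day 14 after bleomycin, 11.3, 11.7, 11.6, 19.6 and 15.5 at day 30, and 12.1, 10.7 and 12.1 after pneumonectomy. Each group except the last 2 stood clear of the others, and day 30 overlapped pneumonectomy. The mean level was 11.4 times that of sham at day 14, 3.18 times at day 30 and 2.66 times after pneumonectomy. On the scaled log2 scale it rose by 3.20 ± 0.26 (limma adjusted p = 1.27e-06), 1.50 ± 0.24 (adjusted p = 0.00136) and 1.62 ± 0.26 (adjusted p = 0.000623). Day 14 after bleomycin was 1.59 ± 0.24 above pneumonectomy (adjusted p = 8.72e-05), and from day 14 to day 30 Col5a3 fell by 1.70 ± 0.21 (adjusted p = 3.22e-05). Its difference between day 30 and pneumonectomy was -0.12 (adjusted p = 0.657) and turned to 0.22 on the deposited scale.

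Col11a1, which encodes α1(XI), had its lowest values in sham. It was at 0.0491 and 0.0389 RPKM in sham, 2.50, 2.40 and 1.99 at day 14 after bleomycin, 0.821, 2.42, 2.18, 4.78 and 4.11 at day 30, and 2.36, 0.203 and 0.806 in pneumonectomy libraries A, B and C. Every library outside sham exceeded both sham libraries, the day 14 bleomycin libraries were close together, and the day 30 and pneumonectomy libraries were spread widely. The mean was 52.2 times that of sham at day 14, 65.1 times at day 30 and 25.6 times after pneumonectomy. With 0.1 RPKM added, which shrinks the change of so low a gene, it rose by 3.85 ± 0.78 (limma adjusted p = 0.00115), 4.07 ± 0.72 (adjusted p = 0.0022) and 2.83 ± 0.78 (adjusted p = 0.0135). The pneumonectomy call was lost without either sham replicate and with a pseudocount of 1 (1.02, adjusted p = 0.108). The difference between day 30 and day 14 did not pass (0.22 ± 0.63, adjusted p = 0.782). In sham Col11a1 was under the 1 RPKM minimum, so it entered the tests through the other groups.

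The wide spread of Col11a1 after pneumonectomy went with the levels of cartilage genes. Col2a1, the collagen of cartilage fibrils, was at 10.2 RPKM in library A, 0.436 in B and 2.95 in C, and at no more than 0.0601 in any sham or bleomycin library. Of 10 cartilage genes, a list chosen after the values were seen and so a description only, all 10 were in the order A, C, B, as was Col11a1, and 9 of 10 had their highest value of the 13 libraries in A, Matn3 being the exception. The shares of all genes in this order, or highest in A, were not counted, so these counts have no background. Matn1 (0.22), Hapln1 (0.728) and Lect1 (0.849) were under 1 RPKM even in A. Library A also had the highest epithelial marker sum of its group (501 RPKM). Comp, a cartilage matrix gene outside that list, was also highest in A (7.19 RPKM) but was no higher in C (0.802) than in B (0.815), and reached 2.26 RPKM at day 30 after bleomycin. The summed level of the 10 listed cartilage genes was 25.45 RPKM in A, 6.95 in C and 1.76 in B, against 0.574 to 1.07 in the other libraries. The part of this in the pneumonectomy value of Col11a1 was not tested. In the bleomycin libraries, Col11a1 reached 0.821 to 4.78 RPKM with Col2a1 at 0.0125 to 0.0601. Without library A, Col11a1 was 1.79 higher at day 14 after bleomycin than after pneumonectomy (adjusted p = 0.0263), against 1.03 ± 0.70 with it (adjusted p = 0.208).

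**Figure D2:**
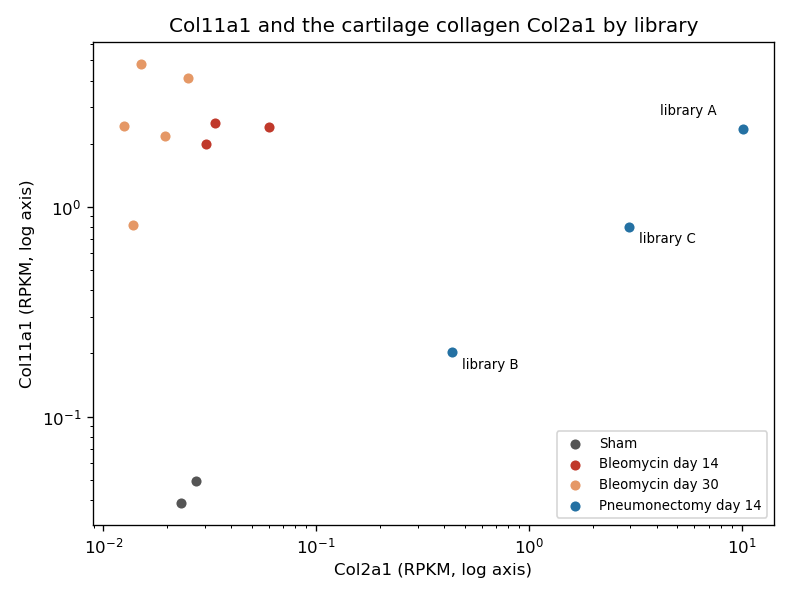
Deposited RPKM of Col11a1 (vertical, log axis) against Col2a1 (horizontal, log axis) in the 13 libraries, coloured by group. The 8 bleomycin libraries have Col11a1 between 0.821 and 4.78 RPKM with Col2a1 no higher than 0.0601, and the 3 pneumonectomy libraries have Col2a1 between 0.436 and 10.2.

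Counted over the 7 genes, 5 were called higher than sham at day 14 after bleomycin and none lower, where 63.3% of all genes tested were called, 33.4% higher and 29.9% lower. The median change of the 7 was 1.09 against 0.02 over all genes. After pneumonectomy 6 were called higher, all but Col1a2, against 42.0% of all genes called and 22.6% called higher, with a median of 1.00 against 0.01. At day 30, 3 were called higher than sham (Col5a2, Col5a3 and Col11a1), against 28.8% called and 14.8% called higher. Deposited values did not overlap with sham for 6 of the 7 at day 14 (all but Col3a1) beside 77.8% of all genes, for 5 after pneumonectomy beside 68.3%, and for 5 at day 30 beside 47.5%. The shares of the 7 called in the upward direction thus lay above the shares of all genes in each comparison with sham, but the 7 were chosen with results of these libraries known and the count carries no test. Each of these counts includes Col11a1, which was under 1 RPKM in sham and entered the tests through the groups where it was higher. The 3 comparisons share the same 2 sham libraries.

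Between the injured groups fewer of the 7 differed. Day 14 after bleomycin differed from pneumonectomy in Col5a3 (higher) and Col3a1 (lower), where 70.8% of all genes were called, so the share of the 7 was below the background. On the deposited scale, where the median of all genes was 0.47 in this comparison, Col5a1 (0.71, adjusted p = 0.00288) and Col5a2 (0.59, adjusted p = 0.0158) were called higher after bleomycin as well. From day 14 to day 30, Col5a1, Col5a2 and Col5a3 fell and no gene rose, against 59.6% called and 30.7% called lower. Col1a1 and Col3a1 were at adjusted p = 0.0605 and 0.0609 in that comparison, with log2 differences of -0.58 ± 0.25 and 0.46 ± 0.20. These 2 rested on the scaling. Col1a1 was called lower on the deposited scale (-0.71, limma adjusted p = 0.0238). Col3a1 was called higher with upper-quartile scaling (0.50, limma adjusted p = 0.0461). Deposited values did not overlap between bleomycin and pneumonectomy at day 14 for Col5a1, Col5a2 and Col5a3, beside 80.5% of all genes, or between day 14 and day 30 for these and Col1a1, beside 60.7%. Between day 30 and pneumonectomy all 7 overlapped, where 65.5% of all genes did not. Day 30 differed from pneumonectomy in Col5a1 alone, which was 0.45 ± 0.16 lower on the log2 scale (adjusted p = 0.0342), against 57.6% of all genes called, 28.5% higher and 29.0% lower, and this call was lost on the deposited scale (-0.10) and without any of day 30 replicates 1 and 2 and libraries A and C. Without library A, Col11a1 was called higher at day 30 than after pneumonectomy (2.01, adjusted p = 0.0139), against 1.25 ± 0.63 with it (adjusted p = 0.11). That call was also gained on the deposited scale (1.54, limma adjusted p = 0.0421) and without day 30 replicate 1 (1.61, limma adjusted p = 0.0315).

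**Figure D3:**
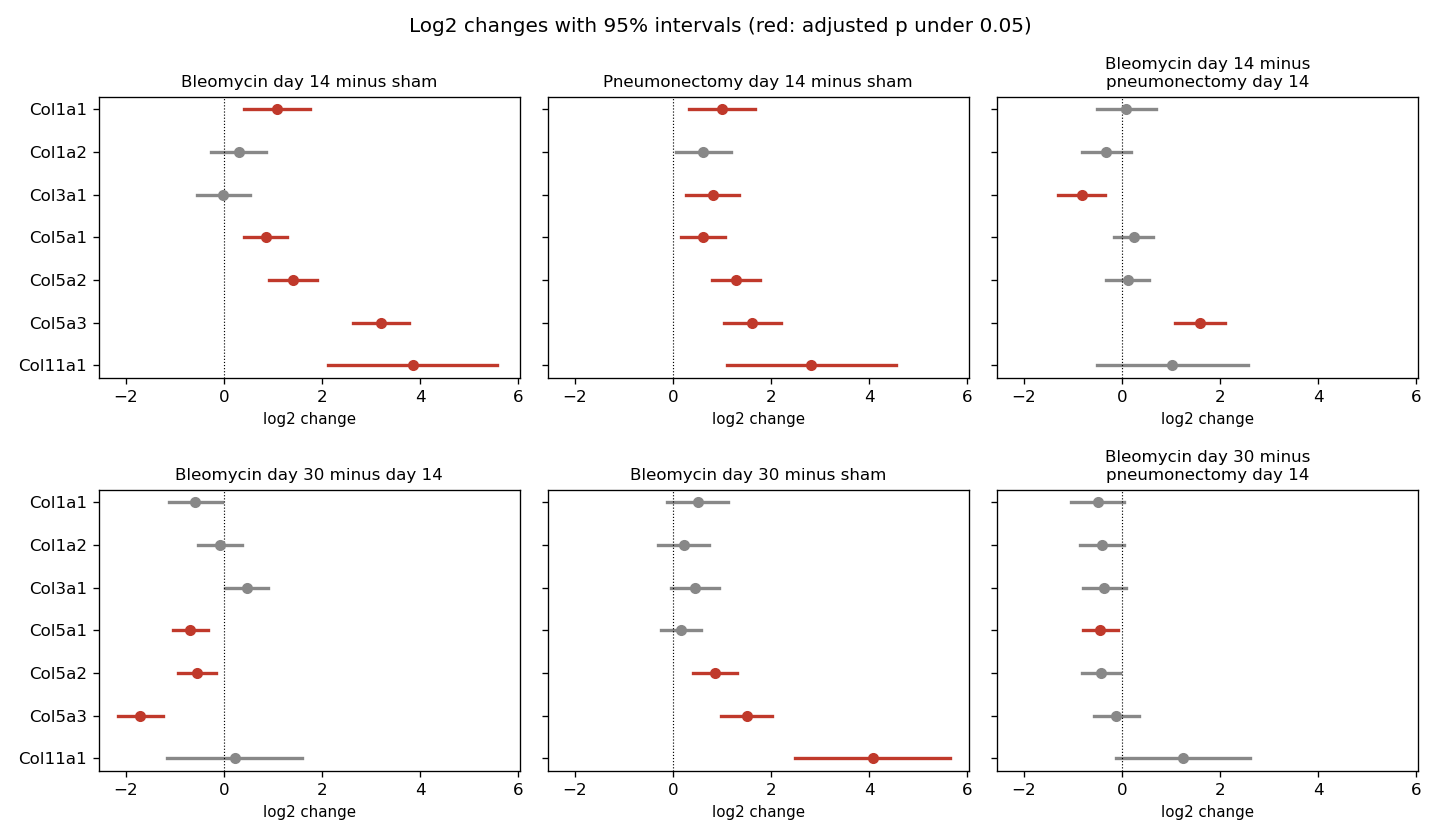
Log2 change with its 95% interval for each of the 7 genes in the 6 comparisons, from the limma fit on scaled RPKM, red for an adjusted p under 0.05 and grey otherwise. Col5a3 and Col11a1 have the largest changes from sham, and Col3a1 lies at -0.01 for day 14 after bleomycin against sham.

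The order of libraries within a group differed between genes, but the highest library was often the same. Day 14 replicate 1 had the highest value of its group for all 7 genes, and it also had the lowest endothelial (314 RPKM) and macrophage (141 RPKM) marker sums of that group. Pneumonectomy library A was highest for 6 of the 7, Col5a3 being the exception, with library C at 12.1 RPKM as well. Together the 7 genes took 1.04% to 1.52% of the summed RPKM in sham, 1.78% to 2.36% at day 14 and 1.48% to 2.11% at day 30 after bleomycin, and 1.58% to 2.70% after pneumonectomy.

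Ratios of 2 chains within a library do not depend on the scaling between libraries. The size of a ratio depends on the gene lengths the authors used, which are not stated, so differences between groups are compared. Col1a1 over Col1a2, the balance of the collagen I chains, was 1.48 and 1.50 in sham, 2.61, 2.52 and 2.58 at day 14 after bleomycin, 1.75 to 1.92 at day 30 (median 1.77), and 2.14, 1.83 and 1.85 after pneumonectomy. Day 14 after bleomycin stood above every other library and sham below every other. The ratio differed over the 4 groups by an exact permutation test over 720720 arrangements of the libraries (two-sided p = 3.61e-05, Benjamini-Hochberg adjusted over 6 ratios 0.000108). Within pneumonectomy library A was the highest.

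Col3a1 over Col1a2 moved the other way at day 14 after bleomycin. It was 1.92 and 1.96 in sham, 1.49, 1.66 and 1.55 at day 14, 2.07 to 2.49 at day 30 (median 2.29), and 2.16, 2.22 and 2.29 after pneumonectomy. Day 14 after bleomycin was below every other library, and the ratio differed over the groups (exact permutation p = 0.000278, adjusted 0.000555). All day 30 and pneumonectomy libraries lay above both sham libraries.

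Among the minor chains, Col5a3 over Col5a1 averaged 0.0552 ± 0.000706 (SD, n = 2) in sham, 0.288 ± 0.0336 (n = 3) at day 14 and 0.142 ± 0.0192 (n = 5) at day 30 after bleomycin, and 0.113 ± 0.00981 (n = 3) after pneumonectomy (exact permutation p = 1.11e-05, adjusted 6.66e-05). Col5a1 over Col5a2 fell from 1.70 ± 0.166 in sham to 1.16 ± 0.083, 1.05 ± 0.0752 and 1.07 ± 0.0574 in the other groups (exact permutation p = 0.00265, adjusted 0.00398). Col11a1 over Col5a1 was 0.000566 ± 0.000161 in sham and 0.0137 ± 0.00249, 0.0282 ± 0.0127 and 0.00994 ± 0.009 in the others (exact permutation p = 0.00418, adjusted 0.00501). All libraries outside sham had a higher Col11a1 to Col5a1 ratio than either sham library.

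The summed Col5a1 and Col5a2 over the summed Col1a1 and Col1a2, a measure of collagen V against collagen I, was 0.139, 0.167, 0.146 and 0.146 on average in the 4 groups and the difference over groups did not pass (exact permutation p = 0.361). Library A stood at 0.109, with B and C at 0.162 and 0.167, and without library A the ratio differed over the groups (adjusted p = 0.0161). Between pairs of groups, none of 36 exact tests reached an adjusted p under 0.15, and the smallest p these sizes allow is 0.1 for 2 against 3 and 3 against 3, 0.0476 for 2 against 5 and 0.0179 for 5 against 3.

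**Figure D4:**
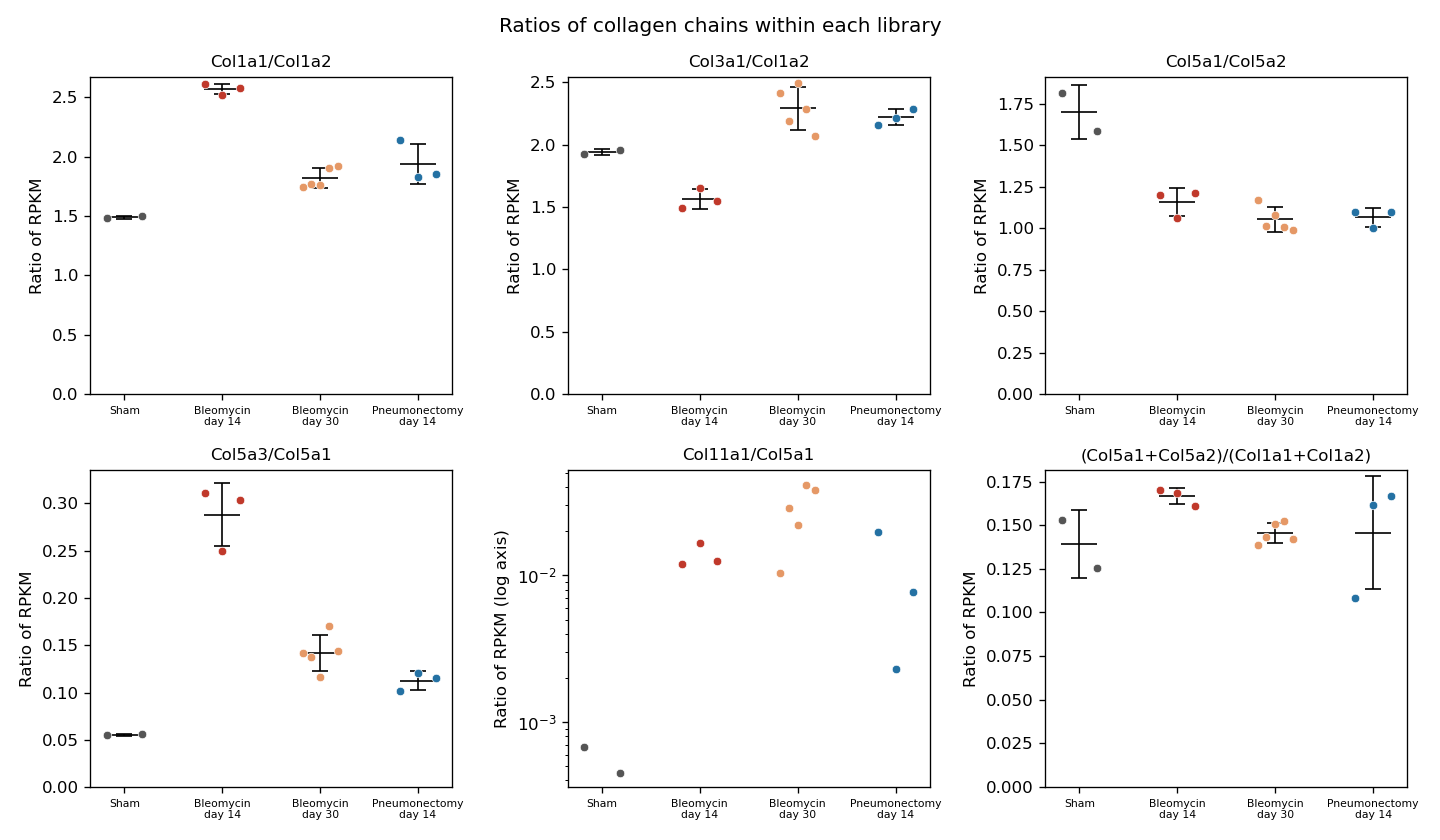
The 6 ratios of deposited RPKM between fibrillar collagen genes, a point per library and a bar at each group mean ± SD, on linear axes from 0 except Col11a1 over Col5a1, which is on a log axis with points alone. Col1a1 over Col1a2 is highest at day 14 after bleomycin (2.52 to 2.61) and lowest in sham (1.48 to 1.50), and Col3a1 over Col1a2 is lowest at day 14.

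The 3 other fibrillar collagen genes tested all rose after pneumonectomy, Col2a1 by 4.60 ± 0.85 (limma adjusted p = 0.00145), and Col24a1 and Col27a1 also rose in both bleomycin groups. Col2a1 reached 1 RPKM in pneumonectomy libraries A and C only. It thus entered the tests through the group where it was high, and its p-values against that group carry this limit. Col24a1, a minor fibrillar chain, was at 0.0859 ± 0.0308 RPKM in sham and 2.09 ± 0.644, 1.44 ± 0.543 and 0.54 ± 0.0797 at day 14 and day 30 after bleomycin and after pneumonectomy, log2 changes of 3.32, 2.89 and 2.00 (limma adjusted p = 9.43e-06, 0.0002 and 0.00113). It was under 1 RPKM in every sham and pneumonectomy library and entered the tests through the bleomycin libraries alone. Col27a1 was at 1.43 RPKM in sham and rose by 1.06 ± 0.19 at day 14 (adjusted p = 0.000465), 0.86 at day 30 (adjusted p = 0.00441) and 1.52 ± 0.19 after pneumonectomy (adjusted p = 0.00012). Of the fibril-associated collagens, which lie on the fibril surface, 2 of 4 tested were higher and 2 lower than sham at day 14, beside 33.4% and 29.9% of all genes, and Col14a1 fell from 239 to 19.0 RPKM (adjusted p = 6.33e-07). Col20a1 fell by 1.91 on the log2 scale. After pneumonectomy 2 were higher, with Col16a1 at 0.96, and 1 was lower, Col14a1 at -1.05 (adjusted p = 0.0147, and 0.0574 without sham replicate 1). At day 30 Col12a1 was 2.35 ± 0.39 above sham (10.6 against 1.68 RPKM, adjusted p = 0.00172) and Col16a1 0.86 above it.

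The genes that modify and fold collagen chains split at day 14 after bleomycin, with 8 of 18 higher and 6 lower than sham, beside 33.4% and 29.9% of all genes called higher and lower. In the other comparisons with sham the shares of all genes were 22.6% higher and 19.3% lower after pneumonectomy and 14.8% higher and 14.1% lower at day 30. P4ha3, a prolyl 4-hydroxylase subunit, rose from 0.496 ± 0.0687 to 18.5 ± 2.20 RPKM, by 4.72 ± 0.40 on the log2 scale (limma adjusted p = 1.65e-06), and Leprel2 (P3h3, a prolyl 3-hydroxylase family member) fell by 0.99 ± 0.09. P4ha3 was under 1 RPKM in sham and entered the tests through the other groups, so its p-values against sham carry this limit. After pneumonectomy 9 of 18 were higher and none lower, or 4 higher and 3 lower on the deposited scale. P4ha3 was then 2.50 ± 0.40 above sham (adjusted p = 0.000575) and Tmem38b, an endoplasmic reticulum ion channel, 0.95 above it. At day 30, 2 were higher and 3 lower than sham, with P4ha3 at 3.60 and Mia3, a procollagen export receptor, at -0.29, whereas on the deposited scale 5 were higher and none lower. Of the procollagen processing genes, 2 of 6 tested were higher and 4 lower at day 14 after bleomycin, Furin by 1.22 and Pcolce2, an enhancer of propeptide removal, by -3.53 ± 0.24 (9.09 against 89.5 RPKM, adjusted p = 3.82e-07). After pneumonectomy 3 were higher, with Adamts2, the procollagen N-proteinase, at 0.72 and Furin at 0.59, and none was lower. At day 30, 2 were higher and 2 lower, Adamts14 at 1.19 and Pcolce2 at -1.04. Without sham replicate 1 these counts were 1 higher and 1 lower after pneumonectomy and 0 higher and 3 lower at day 30, with Adamts2 and Adamts14 no longer called.

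Of 13 fibril assembly partners tested, 6 were lower and 4 higher than sham at day 14 after bleomycin. Of all genes, 29.9% were lower and 33.4% higher at day 14, 19.3% and 22.6% after pneumonectomy, and 14.1% and 14.8% at day 30, and counts this small in the lists carry no test. Ogn fell by 3.47 ± 0.20 (27.9 against 263 RPKM, limma adjusted p = 1.44e-07) and Abi3bp by 2.79 on the log2 scale. After pneumonectomy 5 were higher and 4 lower, with Fmod at 1.87 and Bgn at 0.90, and at day 30, 2 were higher and 4 lower, with Fmod at 3.14 ± 0.30 (50.1 against 5.13 RPKM) and Ogn at -1.17. Of 6 crosslinking enzymes, 3 were higher and 3 lower at day 14, where Loxl4 fell by 2.57 and Loxl1 by 0.79 on the log2 scale. Lox, a lysyl oxidase, rose at day 14 by 1.98 ± 0.27 (83.7 against 17.7 RPKM, adjusted p = 6.1e-05). After pneumonectomy 4 were higher and 1 lower. Lox rose there by 2.11 ± 0.27 (65.5 RPKM, adjusted p = 0.000141) and Tgm2, a transglutaminase, by 1.05. At day 30, 1 was higher (Lox, 0.74, not called without sham replicate 1) and 1 lower (Loxl4, -1.32).

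Of 8 collagen receptor and uptake genes tested, 2 were higher and 2 lower at day 14 after bleomycin, with Ddr2, a receptor tyrosine kinase for fibrillar collagen, lower by 2.28 ± 0.13 on the log2 scale (12.7 against 52.2 RPKM) and Itga11, a collagen-binding integrin subunit, at -1.78. After pneumonectomy 5 were higher and 2 lower, with Mrc2, an uptake receptor, at 0.94 and Itgb1 at 0.82. At day 30, 2 were higher and 1 lower, Itga10 at 0.67 (not called without sham replicate 1) and Ddr2 at -0.63. Among 19 regulators of these genes, 7 were higher and 10 lower at day 14, with Tgfb1 at 2.25 and Runx1 at 3.67, beside 33.4% of all genes higher and 29.9% lower. Runx1 was under 1 RPKM in sham and entered the tests through the other groups. After pneumonectomy 9 were higher and 1 lower, with Smad7, an inhibitor of TGF-beta signalling, at 2.11 ± 0.15 (20.9 against 5.56 RPKM) and Runx1 at 3.23, beside 22.6% of all genes higher and 19.3% lower. At day 30, 4 were higher and 5 lower, or 6 and 3 on the deposited scale, with Tgfb1 at 1.50 and Runx1 at 2.54, beside 14.8% of all genes higher and 14.1% lower.

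Of 5 collagen-degrading proteases, 3 were higher and 1 lower at day 14 after bleomycin, beside 33.4% and 29.9% of all genes. Mmp8, a collagenase of neutrophils, was at 3.45 ± 0.598 against 0.0564 RPKM in sham, and Mmp2 fell from 197 to 78.0 RPKM (limma adjusted p = 5.15e-07). After pneumonectomy 4 were higher and none lower, with Mmp2 at 0.78 and Mmp14 at 0.92, beside 22.6% of all genes higher and 19.3% lower. At day 30, 4 were higher, with Mmp13 at 3.55 and Mmp8 at 2.46, beside 14.8% of all genes higher. Mmp8 and Mmp13 were under 1 RPKM in sham and entered the tests through bleomycin libraries. The lower calls at day 14 in these lists stood beside the lower fibroblast marker sum of that group, which shares Dcn and Lum with the assembly partners.

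Set side by side, day 14 after bleomycin and after pneumonectomy differed in many genes of these lists, as they did in 70.8% of all genes tested. Lower after bleomycin were 12 of 19 regulators (Smad3 by 1.25 and Tgfb2 by 1.43), 8 of 13 assembly partners (Abi3bp by 2.73 and Ogn by 2.79) and 6 of 18 modifying genes, with Leprel2 at -1.22 and P4ha1 at -0.86. The last of these counts turned on the deposited scale, with 11 of 18 modifying genes higher after bleomycin and 2 lower, and regulators then stood at 7 higher and 9 lower. The same held for 4 of 6 processing genes, with Pcolce2 at -3.26 and Adamts2 at -1.92, for 4 of 6 crosslinking enzymes, with Loxl1 at -1.21 and Loxl4 at -2.64, and for 5 of 8 receptor genes, with Ddr2 at -1.72 and Itga11 at -1.06. Among the proteases Mmp2 was at -2.36 and Mmp8 at 3.16, and among the other collagens Col2a1 was at -4.49, Col24a1 at 1.32, Col14a1 at -2.92 and Col20a1 at -1.69. All genes named here passed (limma adjusted p = 0.00287 or smaller), beside 34.6% of all genes called lower and 36.2% called higher. Higher after bleomycin were 3 regulators, 2 assembly partners, 2 modifying genes and 2 processing genes, and no crosslinking or receptor gene.

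From day 14 to day 30 after bleomycin, 9 of 13 assembly partners rose, beside 28.9% of all genes, with Lum up by 2.46 ± 0.13 (190.1 against 37.3 RPKM, limma adjusted p = 6.42e-08) and Abi3bp by 2.40. Pcolce2 rose by 2.49, Mmp2 by 1.75, Ddr2 by 1.65, Itga11 by 1.37, Tgfb3 by 1.31, Smad3 by 1.07, Loxl4 by 1.24, Loxl1 by 0.72, Leprel2 by 0.75, P4ha1 by 0.59, Col14a1 by 3.27 and Col20a1 by 1.32, while Furin fell by 0.83 and Mmp8 by 1.85. These moved beside a rise of 8 of 10 fibroblast markers and a fall of 10 of 10 endothelial markers. The lists are not separate, since Dcn and Lum are both assembly partners and fibroblast markers. Against pneumonectomy, day 30 was lower in 9 of 18 modifying genes (Tmem38b by 0.70, Leprel2 by 0.47), 5 of 6 crosslinking enzymes (Loxl4 at -1.40 and Lox at -1.37) and 10 of 19 regulators (Smad7 at -2.29 and Cebpb at -1.65), beside 29.0% of all genes lower. These counts rest on the scaling: on the deposited scale 6 modifying genes were higher and 1 lower, 1 crosslinking enzyme was higher and 2 lower, and 6 regulators were higher and 6 lower. Adamts2 was at -1.02, Pcolce2 at -0.77, Bgn at -0.71, Itgb1 at -0.69, Ddr1 at -0.85, Mmp2 at -0.61, Col27a1 at -0.66, Col2a1 at -4.71 and Col20a1 at -0.37 in that comparison, and Fmod at 1.27, Mmp13 at 2.05 and Col12a1 at 0.94. On the deposited scale Leprel2, Pcolce2, Col27a1 and Col20a1 kept their direction and were not called in that comparison, and Col12a1 was not called without library A.

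Across the 13 libraries, the genes with the profile most like each collagen gene were found among 4032 genes by the root-mean-square difference of mean-centred scaled log2 values, so that libraries of a group, depth and cell mix are shared by all points. Nearest to Col5a1 were Fkbp10 (0.0921), Loxl2 (0.122) and Lepre1 (0.136), a prolyl 3-hydroxylase gene also called P3h1. Nearest to Col1a1 were Sparc (0.203), Adamts12 (0.241) and Plod1 (0.253), to Col1a2 Sh3pxd2a (0.171), Sh3pxd2b (0.176) and Mfap2 (0.202), and to Col3a1 Mfap2 (0.182), Bgn (0.213) and Igfbp7 (0.226). Nearest to Col5a2 were Lgmn (0.189), Tbx4 (0.224) and Ppic (0.225). Col5a3 and Col11a1 had no gene as near: their closest were Car2 (0.297) and Bmper (0.34) for Col5a3, and Wif1 (0.654), Scube1 (0.687) and Ltbp2 (0.715) for Col11a1. Between the 7 genes themselves, the closest pairs were Col1a1 with Col5a1 (0.21) and Col1a1 with Col5a2 (0.211), closer than Col1a1 with its partner chain Col1a2 (0.259). The neighbours Col3a1 and Col5a2 differed by 0.501, and the farthest pair was Col3a1 with Col11a1 (1.52).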

How the data were processed

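RNA sequencing of 13 mouse lung fibroblast libraries was used as a table of gene-level RPKM that the authors deposited, 1 column per library. The assembly was mm10 per the submitters' processing notes, which also name GRCm38 for the pneumonectomy libraries; for the aligner, read counter, annotation and gene lengths the sources used here give nothing. Per the labels, libraries were made throughout with TruSeq v2 kits from 200 ng of RNA; poly-A selection, 12 cycles of PCR and an RNA quality number of at least 6 are stated for sham and bleomycin only, and an RNeasy micro kit for pneumonectomy only, so preparation cannot be told apart from pneumonectomy. Of the 43346 entries, 131 had a repeated symbol, and all values of the 37 mitochondrial genes were 0.

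The filter asked for 1 RPKM or more in 2 or more libraries and kept 12938 entries, all 7 collagen genes among them. Genes under 1 RPKM in sham passed it through other groups, and their p-values against sham carry this limit. Among those named are Col11a1, P4ha3, Runx1, Mmp8, Mmp13, Adamts14, Itga10, Mki67 and Cd3e. Libraries were scaled by factors of the trimmed-mean type (trimming 30% of ratios and 5% of levels), 0.1 was added, and log2 values were fitted in 1 model with a mean per group over all 13 libraries with limma 3.58.1 in R 4.3.3 (intensity trend, robust), two-sided with Benjamini-Hochberg adjustment over all genes, called at 0.05. The spread is thus shared over groups, and sham (n = 2) is assumed to vary like the others. The procedure was tested on simulated data. Levels are means of deposited RPKM ± SD. Ratios were taken on deposited RPKM, their log2 values compared by exact permutation over libraries. Depth was read from the steps between low values with GENCODE M21 lengths, and covers counting error only, since PCR reads are not independent molecules.

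The 7 genes and all gene and marker lists were chosen with earlier results of these data known. Named are the 7 genes, up to 2 called genes with the smallest p per list and comparison, the 3 genes of most like profile (with at least 5 RPKM on average) and the 2 most abundant markers of each cell type list; 1 gene of most like profile is not named because its symbol in the table had been turned into a date. Older symbols in the table were matched for P3h1, P3h3 and others. The cartilage list was added after the values were seen and got no test as a list, while its member Col2a1 was tested among the other fibrillar collagens. Alternatives were another pseudocount, filter or scaling, a fit of the compared groups alone, a replicate block, and leaving out each library; for the lists, other scalings and leaving out sham replicate 1 or library A were chosen after seeing the data. RefSeq promoter entries were found for 5 of the 7 genes. Python 3.11.15 was used for the rest.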

Additional observations from a re-analysis of the deposited data

Results flagged for a closer look

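The change after bleomycin, measured against the same sham libraries, differed between day 30 and day 14 for 3 of the 7 genes, by the test of day 30 against day 14 (limma, Benjamini-Hochberg adjusted p). Of all genes tested, 59.6% were called in that comparison, and 30.7% were called lower. The log2 change was smaller at day 30 by -0.685 for Col5a1 (adjusted p = 0.00339, from 0.85 to 0.17), by -0.546 for Col5a2 (adjusted p = 0.0202, from 1.41 to 0.86) and by -1.70 for Col5a3 (adjusted p = 3.22e-05, from 3.20 to 1.50). Without day 14 replicate 1 the Col5a2 call was lost (-0.39, limma adjusted p = 0.107). All 5 day 30 libraries lay below all 3 day 14 libraries for each of these genes, beside 60.7% of all genes without overlap between the groups. Sex-linked genes, endothelial markers and fibroblast markers differed between the same groups, and their part was not tested. Among 13 groups of 5 values checked for a library far from the rest, none was found, where chance gives about 1 in 20. Only day 30 after bleomycin has 5 libraries, so the sham, day 14 and pneumonectomy libraries were not checked in this way.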

How the results depend on the processing

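Of the log2 changes of single genes under all alternatives, 565 kept their direction and side of the threshold, 32 kept the direction and lost the call, 12 gained a call and 15 changed sign, none of these called. Those that changed sign were, day 14 against sham, Col3a1 (0.23 on the deposited scale, 0.30 without sham replicate 2, 0.03 and 0.06 without day 14 replicates 2 and 3); bleomycin against pneumonectomy at day 14, Col1a1 (-0.07 without day 14 replicate 1, -0.0906 and -0.05 without libraries B and C, and up to 0.411 without library A), Col1a2 (0.15 on the deposited scale) and Col5a2 (-0.0346 without day 14 replicate 1); day 30 against day 14, Col1a2 (0.0631 without day 14 replicate 1, down to -0.17 without replicate 2) and Col11a1 (-0.0134 without day 30 replicate 4, up to 0.584 without replicate 1); day 30 against sham, Col1a2 (-0.0813 without sham replicate 1, 0.515 without replicate 2); and day 30 against pneumonectomy, Col5a3 (0.0295 with upper-quartile scaling, 0.22 on the deposited scale). With the compared groups fitted alone, the number called of the 7 was 2 for pneumonectomy against sham and 5 for day 30 against day 14, where Col1a1 and Col3a1 were added. For day 30 against pneumonectomy it was 0 without the filter and with upper-quartile scaling. Leaving out 1 library gave 4 to 5 called for day 14 against sham, 2 to 6 for pneumonectomy against sham (2 without sham replicate 1, 3 without library A), 2 to 3 between bleomycin and pneumonectomy at day 14, 2 to 3 for day 30 against day 14, 2 to 3 for day 30 against sham and 0 to 2 for day 30 against pneumonectomy. The adjusted p of collagen V over collagen I ranged from 0.0161 to 0.597 on leaving out a library, while the other 5 ratios remained at 0.0207 or below. The number of all genes called fell with a filter at 5 RPKM, which tests fewer genes, to 4007, 2624, 4363, 3841, 1902 and 3480 (day 14 and pneumonectomy against sham, bleomycin against pneumonectomy at day 14, day 30 against day 14, sham and pneumonectomy), from 8188, 5430, 9158, 7712, 3731 and 7449. For pneumonectomy against sham it was 3481 in the fit of those groups alone and 3358 without sham replicate 2, and for day 30 against sham 2351 and 1802 without sham replicate 1 or 2; leaving out a library gave 7033 to 7777, 3358 to 5044, 8470 to 9003, 6641 to 7610, 1802 to 4082 and 6623 to 7426. The share of calls that were higher was 52.7%, 54%, 51.1%, 48.5%, 51.2% and 49.6%, on the deposited scale 71.6%, 25.4%, 77.4%, 34.8%, 76.4% and 81.1%, and with upper-quartile scaling 35.3% for pneumonectomy against sham and 66.2% for day 30 against pneumonectomy. Libraries with the same replicate number did not deviate together (correlations of -0.127 to 0.136), so the numbers do not show a pairing; with a replicate block, day 30 against sham had 1 of the 7 called (Col5a2 0.69 and Col5a3 1.29 were no longer called) and 367 genes in all, 75.5% of them higher, and Col11a1 from day 14 to day 30 was -0.32. No paired analysis was possible because the pneumonectomy columns carry no number, for the comparisons with that group. Where no cause is named, the cause was not tested. Of 106 named list changes, none turned direction under the other scalings or without sham replicate 1 or library A, and 5, 1, 6 and 1 lost their call on the deposited scale, with upper-quartile scaling and without those 2 libraries in turn. Depth limits Col11a1 in sham most, at about 42.3 and 35.7 reads.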
